A study of Homo sapiens with 3 samples.

Results

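The transcripts described here are the host genes of microRNAs and small nucleolar RNAs (snoRNAs), together with the nuclear long non-coding RNAs NEAT1 and MALAT1, in human THP-1 macrophages. They were taken by name from the array design, as symbols that begin with SNHG and a digit, symbols that begin with MIR and end in HG, and GAS5, NEAT1 and MALAT1. The names matched 129 probes of 57 genes, out of 58201 probes with 43317 gene names on the array. Of these, 105 probes of 53 genes were well above background on at least 1 array and were kept. All 21 snoRNA host genes were kept with 43 of their 47 probes, 30 of 34 microRNA host genes with 55 of 75 probes, and NEAT1 and MALAT1 with all 7 of their probes. MIR1-1HG, MIR4697HG, MIR663AHG and MIR670HG had no probe well above background. The faintest kept probe, of SNHG23, reached a log2 intensity of 4.21, and the brightest probe left out, of SNHG8, reached 4.49, because the mark is set spot by spot against the background around it.

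THP-1 is a monocytic leukemia line. In all 3 conditions the cells had first been made macrophage-like by 24 to 36 h of the phorbol ester PMA at 100 ng/mL. The medium was then renewed for a night. Ctrl cells are labelled as normal cells, IMQ cells received imiquimod, a ligand of Toll-like receptor 7, and IMQ+DMD cells were given DMD, a benzenoid of the fungus Antrodia cinnamomea, before and together with IMQ. The label of the last condition calls the added compound only X. X is taken here to be DMD, the sole compound named for this series besides IMQ and PMA. The labels give 4 h as the time for each condition and no dose. RNA was hybridized to 1 one-color array per condition, all on 1 slide, so that every difference below is between single arrays, with no p-value, and precision is limited by how few arrays there are. A difference between cells and a change in the RNA of each cell cannot be told apart in such bulk samples, and slide position and condition cannot be told apart either.

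Host genes are transcribed as long RNAs from which smaller RNAs are cut. In a snoRNA host, the snoRNAs sit in introns and guide the chemical modification of ribosomal RNA, while the spliced exons are often short-lived and removed by nonsense-mediated decay. In a microRNA host, a hairpin in an intron or exon is released by Drosha and Dicer and yields a mature microRNA that pairs with target mRNAs through its seed, and the host RNA is the primary transcript. NEAT1 builds the paraspeckle, a nuclear body, and its neighbor MALAT1 resides in nuclear speckles. The probes read the long transcripts, and mature microRNAs and snoRNAs were not measured here. Of the marker genes of monocytes and macrophages, 8 of 10 had a probe with signal, among them CSF1R with log2 intensities of 17.78, 17.40 and 17.23 and CD14 with 14.42, 13.71 and 13.20 on the Ctrl, IMQ and IMQ+DMD arrays. The keratinocyte genes KRT5, KRT14 and KRT1 lay between 4.15 and 5.93 on every array, close to background, and KRT5 was not well above it on the IMQ array, at least 1.11 below IMQ+DMD. Of 4 epithelial and endothelial genes, PECAM1 and VWF had signal and 0 were past 2-fold. Of the T cell list, IL7R alone among 5 genes differed by 2-fold or more with IMQ (7.62, 11.33 and 10.81), while CD3D read 8.32, 8.25 and 8.39 and CD4, which macrophages also express, 13.51, 13.22 and 13.37. All 3 B cell genes had signal and 0 were past 2-fold with IMQ, with CD79A at 12.02, 11.74 and 11.97. The part of other cell types in the values below was not tested.

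Mature sequences from RefSeq (GRCh38) are shown for microRNAs of MIR503HG, MIR155HG, MIR210HG, MIR22HG and MIR17HG. The seeds define which of these microRNAs can pair with the same targets. Capitals mark the seed, bases 2 to 8.
hsa-miR-503-5p: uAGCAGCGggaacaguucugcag
hsa-miR-424-5p: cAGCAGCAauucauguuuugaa
hsa-miR-155-5p: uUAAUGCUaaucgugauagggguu
hsa-miR-210-3p: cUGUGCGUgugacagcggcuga
hsa-miR-22-3p: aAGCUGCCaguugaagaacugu
hsa-miR-17-5p: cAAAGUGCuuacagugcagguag
hsa-miR-20a-5p: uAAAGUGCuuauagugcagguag
hsa-miR-18a-5p: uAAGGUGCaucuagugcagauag
hsa-miR-19a-3p: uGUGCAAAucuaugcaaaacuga
hsa-miR-19b-3p: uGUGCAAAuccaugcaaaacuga
hsa-miR-92a-3p: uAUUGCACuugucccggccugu

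The first pair belongs to the locus of MIR503HG on the X chromosome, and the last 6 are cut from MIR17HG. Within that cluster, miR-17-5p and miR-20a-5p share a seed, as do miR-19a-3p and miR-19b-3p. The seeds of miR-503-5p and miR-424-5p are not identical. Among all mature human microRNAs in the reference, the seed of miR-155-5p, like those of miR-503-5p, miR-210-3p and miR-22-3p, occurred in 1 name, and that of miR-17-5p in 8.

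The probes of NEAT1, MALAT1 and MIR503HG are shown because different probes of the same transcript gave differences of different size. Each is 60 bases long and is written 5′ to 3′ with its hg19 position from the scanner output. Capitals mark the 19 bases that the first pair of NEAT1 probes have in common and, in the last MALAT1 probe, the letters AATAAA of the common polyadenylation signal.
NEAT1, chr11:65192168-65192227, plus strand: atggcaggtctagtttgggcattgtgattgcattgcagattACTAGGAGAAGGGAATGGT
NEAT1, chr11:65192209-65192268, plus strand: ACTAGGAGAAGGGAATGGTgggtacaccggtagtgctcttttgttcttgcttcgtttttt
NEAT1, chr11:65193885-65193944, plus strand: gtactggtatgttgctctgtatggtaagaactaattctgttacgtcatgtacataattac
MALAT1, chr11:65268619-65268678, plus strand: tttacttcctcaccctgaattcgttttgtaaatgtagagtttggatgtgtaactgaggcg
MALAT1, chr11:65270980-65271039, plus strand: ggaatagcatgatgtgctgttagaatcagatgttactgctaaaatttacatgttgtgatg
MALAT1, chr11:65273714-65273773, plus strand: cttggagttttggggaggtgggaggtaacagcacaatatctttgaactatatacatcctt
MALAT1, chr11:65273871-65273930, plus strand: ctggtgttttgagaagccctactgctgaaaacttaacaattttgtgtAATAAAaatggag
MIR503HG, chrX:133678744-133678803, minus strand: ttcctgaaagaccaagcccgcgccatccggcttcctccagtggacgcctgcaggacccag
MIR503HG, chrX:133677703-133677762, minus strand: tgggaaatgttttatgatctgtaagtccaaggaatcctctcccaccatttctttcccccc
MIR503HG, chrX:133677412-133677471, minus strand: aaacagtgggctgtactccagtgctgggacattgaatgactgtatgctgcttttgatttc

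The letters AATAAA were present in 10 of the 105 kept probes (9.52%) and in 7.85% of all probes of the array.

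The values that follow are log2 of the quantile-normalized intensity, and a difference is one log2 value minus another, so that 1 stands for a 2-fold difference. Where an array gave no signal well above background for a probe, its value there was raised to the array's detection floor, the faintest reading of any probe that did have such signal, unless it was already higher. A difference against such a value is a lower bound, written as at least. Many differences are followed by a technical SD, which comes from 300 probes spotted 10 times on each array and was read at the brightness of the probe. It covers the noise of spots within an array and leaves out the spread between cultures, RNA preparations and arrays. A probe was counted at 2-fold or more.

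With IMQ, the share of host probes past 2-fold was close to that of the whole array. Between IMQ and Ctrl, 5 of 101 compared probes were at least 2-fold higher (4.95%, against 4.31% of all 41107 probes compared) and 4 were at least 2-fold lower (3.96%, against 3.48%). The median difference was -0.01 for the members and -0.01 for all probes. Between IMQ+DMD and IMQ, 2 of 96 were higher (2.08%, against 1.09% of 40828) and 3 were lower (3.12%, against 1.31%). Between IMQ+DMD and Ctrl, 4 of 102 were higher (3.92%, against 3.09% of 43692) and 7 were lower (6.86%, against 4.91%). The 3 comparisons share arrays and are not independent of each other. A log2 difference of under 2 technical SDs was found for 61 of the 101 probes between IMQ and Ctrl and for 62 of the 96 between IMQ+DMD and IMQ.

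**Figure D1:**
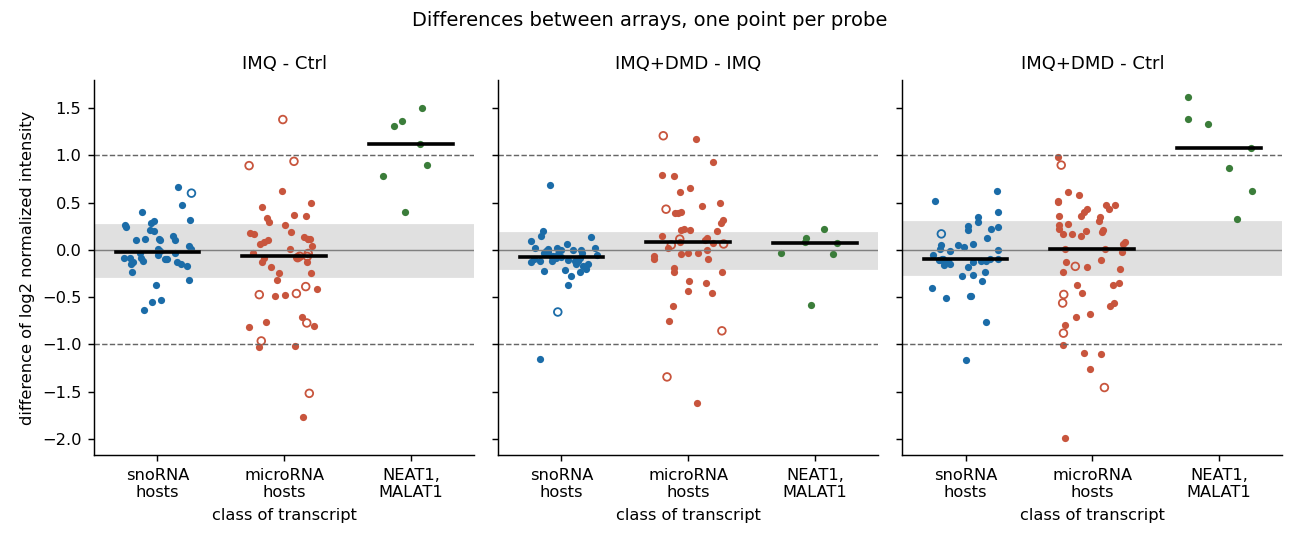
Difference of log2 normalized intensity (vertical axis) between the arrays named above each panel, for the probes of snoRNA hosts, microRNA hosts, and NEAT1 with MALAT1 (horizontal axis). Each point is a probe, open points are lower bounds, black bars are medians, the grey band holds the middle of all probes of the array from the lower to the upper quartile, and dashed lines mark 2-fold; all 7 probes of NEAT1 and MALAT1 lie above 0 between IMQ and Ctrl, with a median of 1.12, while the medians of the other classes are -0.02 and -0.07.

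The nuclear RNAs NEAT1 and MALAT1 held 4 of the 5 member probes that were at least 2-fold higher with IMQ. All 7 of their probes were higher on the IMQ array than on the Ctrl array, by 0.40 to 1.5, each by more than 2 technical SDs, and this direction was the same under all 5 other scalings of the arrays that were run. The count past 2-fold was not: 1 of the 7 without normalization, 3 with scaling to spike-in probes and 5 with scaling to the 75th percentile. NEAT1 was read by an overlapping pair of probes and by a brighter probe 1616 bases downstream. The first probe of the pair read 8.84 in Ctrl, 10.34 with IMQ and 10.46 with IMQ+DMD. Its neighbor read 8.78, 10.14 and 10.11. The difference between IMQ and Ctrl was 1.5 for the first (2.83-fold, technical SD 0.08) and 1.36 for the neighbor (2.57-fold, technical SD 0.08), which was short of 2-fold at 0.96 without normalization. Since they share 19 bases, they are not separate readings of the transcript. The downstream probe read 12.88, 13.78 and 13.20, which made a difference of 0.90 between IMQ and Ctrl (1.87-fold, technical SD 0.06).

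With DMD, the NEAT1 probes parted. The overlapping pair differed from the IMQ array by 0.12 and -0.03, within 2 technical SDs, and stayed at 1.62 and 1.33 above Ctrl. The last value was short of 2-fold at 0.87 without normalization and at 0.95 with scaling to spike-in probes. The downstream probe was -0.58 relative to IMQ (technical SD 0.06), which left it 0.32 above Ctrl, or -0.16 and -0.08 relative to Ctrl without normalization and with scaling to spike-in probes. Under the other scalings this probe lay between -0.55 and -0.80 relative to IMQ, while the pair lay between -0.16 and 0.16. The unevenness of a spot was ranked by the spread of its pixels among spots of like brightness. In the order first probe, neighbor and downstream probe, the NEAT1 spots stood at percentiles 93.4, 99.1 and 99.1 on the IMQ array and at 63.2, 83.3 and 99.1 on the IMQ+DMD array, and the part of spot quality in these differences was not tested.

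MALAT1 was higher on the IMQ array in all 4 of its probes, and the size differed along the transcript. The probe nearest the 5′ end read 11.63, 12.04 and 12.26 on the Ctrl, IMQ and IMQ+DMD arrays, a difference of 0.40 between IMQ and Ctrl. The next read 15.10, 15.88 and 15.97, a difference of 0.79. The pair near the 3′ end read 10.76, 12.08 and 12.15, and 12.00, 13.12 and 13.08. Their differences were 1.31 (2.49-fold) and 1.12 (2.18-fold), and the technical SDs of the 4 probes were 0.05 to 0.07. Between IMQ+DMD and IMQ the probes differed by 0.23, 0.08, 0.07 and -0.04 in the same order, and they remained 0.63 to 1.38 above Ctrl. Without normalization between arrays, where the median of all probes compared was -0.51 on the IMQ array relative to Ctrl, the differences of the 4 probes between IMQ and Ctrl were 0.02, 0.48, 0.93 and 0.77. Between IMQ+DMD and Ctrl they were 0.14, 0.47, 0.89 and 0.60 in that setting. With scaling to spike-in probes the latter were 0.22, 0.55, 0.97 and 0.68, all short of 2-fold.

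**Figure D2:**
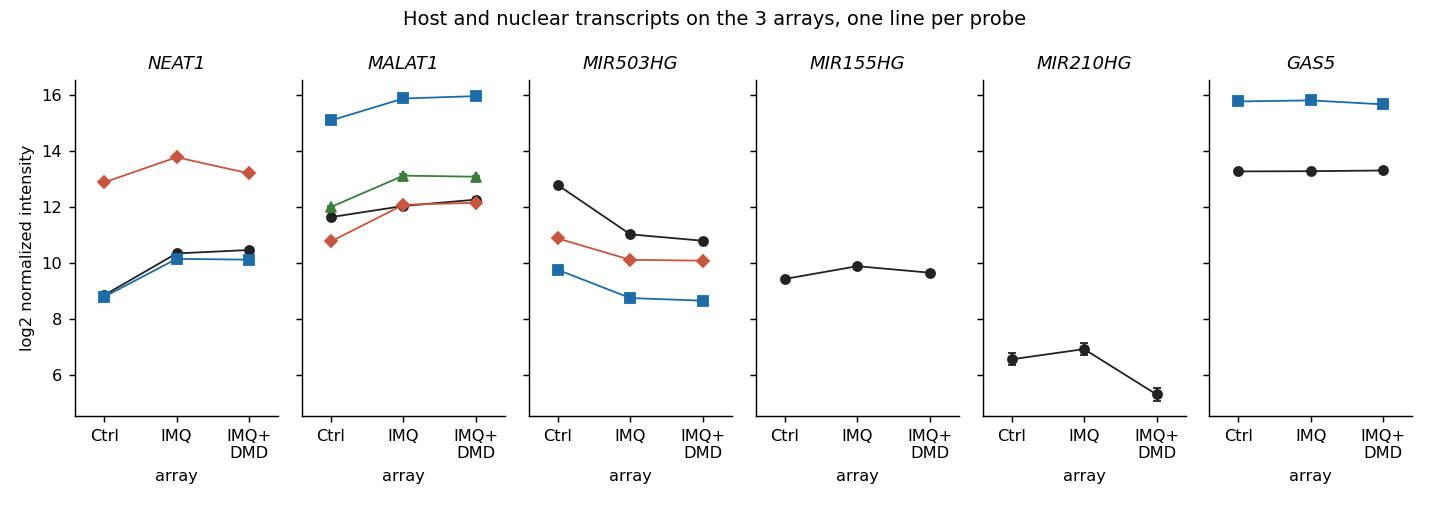
Log2 normalized intensity (vertical axis) of each kept probe of NEAT1, MALAT1, MIR503HG, MIR155HG, MIR210HG and GAS5 on the Ctrl, IMQ and IMQ+DMD arrays (horizontal axis). Each line is a probe on 1 array per condition, and bars show the SD of repeated spots at that brightness, mostly smaller than the symbols; NEAT1 and MALAT1 lines go up from Ctrl to IMQ, the MIR503HG lines go down, and the GAS5 lines are flat.

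The microRNA hosts were the more scattered class, and most of them were dim. Signal well above background on every array was found for 39 of their 75 probes (52.0%), against 64.6% of all probes, and 14 of the 55 kept probes had a mean log2 intensity of at least 8. Between IMQ and Ctrl, 1 of 52 compared probes was at least 2-fold higher (1.92%, against 4.31% of all probes) and 4 were at least 2-fold lower (7.69%, against 3.48%). Of the 52, 38 were within 2 technical SDs. Between IMQ+DMD and IMQ, 2 of 47 were higher (4.26%, against 1.09%) and 2 lower (4.26%, against 1.31%). Between IMQ+DMD and Ctrl, 0 of 53 were higher (against 3.09%) and 6 lower (11.3%, against 4.91%). The counts depended on the scaling. Between IMQ and Ctrl, 0 were higher and 16 lower without normalization (1.71% and 15.6% of all probes), 0 and 13 with scaling to spike-in probes (2.09% and 10.6%) and 1 and 8 with scaling to the 75th percentile (3.61% and 4.57%). With the normexp background correction, which draws dim values together, the probe of MIR503HG nearest its 3′ end was the only one left past 2-fold, and 0 were left between IMQ+DMD and IMQ. Of the differences between IMQ and Ctrl, 13 were bounds because the dimmer array had no signal well above background.

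MIR503HG, the host RNA at the locus of miR-503 and miR-424, was the only bright microRNA host past 2-fold among those compared, and it was lower with IMQ in all 3 probes. The probe nearest the 3′ end read 12.78 in Ctrl, 11.02 with IMQ and 10.79 with IMQ+DMD, a difference of -1.76 between IMQ and Ctrl (3.39-fold lower, technical SD 0.06). The middle probe read 9.75, 8.74 and 8.64, a difference of -1.01 (2.02-fold lower, technical SD 0.09). The probe nearest the 5′ end read 10.87, 10.11 and 10.08, a difference of -0.76 (technical SD 0.07). With DMD the 3 probes stood at -0.23, -0.09 and -0.03 relative to IMQ in the same order, and at -1.99, -1.10 and -0.79 relative to Ctrl. The lower level with IMQ was found in all 3 probes under each of the 5 other scalings, with differences from -0.72 to -2.14, and the middle probe was at -0.99 and -0.89, short of 2-fold, under the quantile normalization made here and the normexp background correction.

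**Figure D3:**
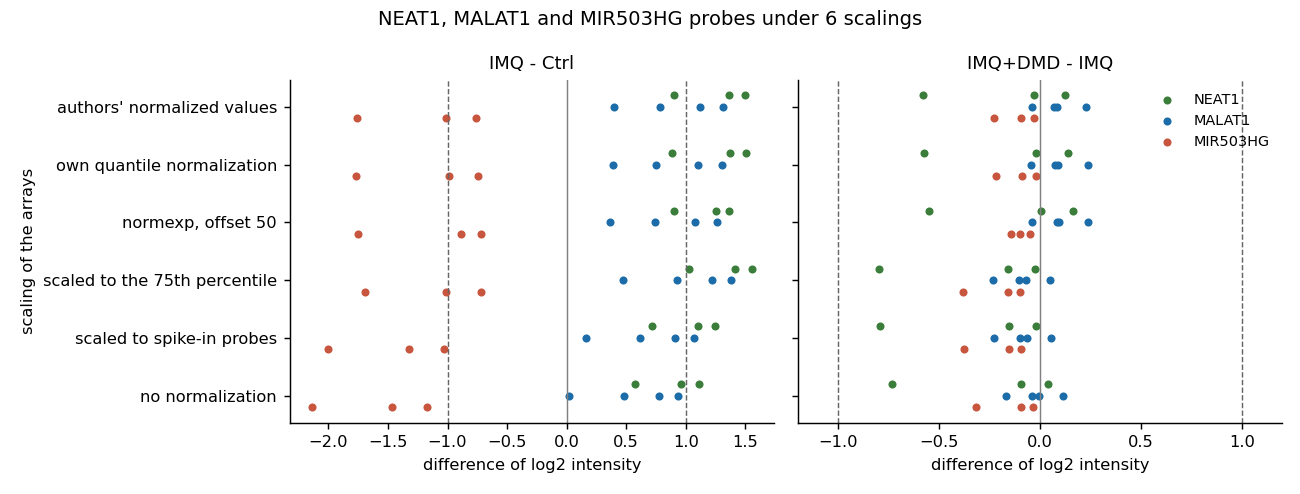
Difference of log2 intensity (horizontal axis) between IMQ and Ctrl and between IMQ+DMD and IMQ for every probe of NEAT1, MALAT1 and MIR503HG under 6 ways of scaling the arrays (vertical axis). Each point is a probe and dashed lines mark 2-fold; between IMQ and Ctrl no probe of these genes crosses 0, and without normalization 1 MALAT1 probe is at 0.02.

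MIR155HG, whose RNA carries miR-155 and is a known target of Toll-like receptor signaling in macrophages, did not reach 2-fold. Its single probe (chr21:26946350-26946409, plus strand) read 9.42, 9.88 and 9.65 on the Ctrl, IMQ and IMQ+DMD arrays. The difference was 0.46 between IMQ and Ctrl (technical SD 0.08) and -0.23 between IMQ+DMD and IMQ. The former ranged from 0.06 without normalization to 0.51 with scaling to the 75th percentile.

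MIR17HG, the source of the miR-17-92 cluster, was read by 3 probes that did not move in a single direction between IMQ and Ctrl. They read 8.62, 8.78 and 8.89 on the 3 arrays, then 7.23, 7.10 and 7.24, then 6.62, 6.98 and 7.06, with differences of 0.16, -0.13 and 0.36 between IMQ and Ctrl. All 3 differences are within 2 technical SDs. Between IMQ+DMD and IMQ the probes were higher by 0.11, 0.14 and 0.07 in the same order. Between IMQ+DMD and Ctrl they were higher by 0.27, 0.01 and 0.43, the first beyond 2 technical SDs (technical SD 0.09).

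MIR22HG, the host of miR-22, was higher with DMD than without it in both probes. They read 10.29, 10.58 and 10.79, and 9.41, 9.53 and 10.00. The differences were 0.29 and 0.12 between IMQ and Ctrl and 0.21 and 0.46 between IMQ+DMD and IMQ, and they were 0.50 and 0.58 between IMQ+DMD and Ctrl, all short of 2-fold. For the brighter probe, the first of these was -0.10 without normalization.

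MIR210HG, the host of the hypoxia-responsive miR-210, had the largest difference between IMQ+DMD and IMQ among those of the members that are not bounds. Its only probe (chr11:567565-567624, minus strand) read 6.54 in Ctrl, 6.91 with IMQ and 5.29 with IMQ+DMD. The difference was 0.37 between IMQ and Ctrl (technical SD 0.30), -1.62 between IMQ+DMD and IMQ (3.08-fold lower, technical SD 0.32), and -1.26 between IMQ+DMD and Ctrl. The IMQ+DMD array was thus the low one of the 3. With the normexp background correction, the difference from IMQ was -0.84, short of 2-fold, and that from Ctrl was short of 2-fold as well.

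MIR4435-1HG, called MIR4435-2HG in current RefSeq, was short of 2-fold. As normalized by the authors, it was higher with DMD than with IMQ alone in all 3 probes. Its 3 probes read 14.48, 14.23 and 14.35, then 12.15, 12.16 and 12.55, then 10.20, 10.24 and 10.56. The differences were -0.25, 0.01 and 0.04 between IMQ and Ctrl and 0.12, 0.39 and 0.32 between IMQ+DMD and IMQ. A nearly identical copy of this gene, LINC00152, read 13.77, 13.52 and 13.66 from its own probe, and the array cannot fully separate the copies.

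MIRLET7DHG, named LINC02603 in current RefSeq, is a neighbor of let-7 microRNA genes. Its probe read 5.77, 4.95 and 6.13, lowest on the IMQ array, with differences of -0.82 between IMQ and Ctrl and 1.18 between IMQ+DMD and IMQ (2.26-fold higher, technical SD 0.43). The latter was 0.44 with the normexp correction.

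MIR143HG, now named CARMN, is known from smooth muscle and hosts miR-143 and miR-145. Of its 6 kept probes, 1 was past 2-fold between IMQ and Ctrl (6.55, 5.52 and 6.18 on the 3 arrays, a difference of -1.03, technical SD 0.32), and it was at -0.56 with the normexp correction. The brightest probe did not share this, with 7.62, 7.55 and 7.83. Another read 7.02, 7.16 and 7.37, and another 6.11, 5.41 and 5.40. A dim probe at 5.35 on the Ctrl array and 5.78 on the IMQ+DMD array was not well above background on the IMQ array, which puts IMQ+DMD at least 2.31-fold above IMQ there, a bound of 0.49 on the log2 scale with the normexp correction. The last was well above background on the Ctrl array alone, at 4.55.

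The hosts of miR-181 were dim as well. MIR181A1HG had a probe at 6.09 on the Ctrl array and 5.0 on the IMQ+DMD array that was not well above background on the IMQ array, which made it at least 2.86-fold lower with IMQ (a bound of -0.69 on the log2 scale with the normexp correction), and another at 4.58, 4.70 and 5.10 that did not follow it. The spot of the former was among the most uneven of its brightness on the Ctrl array, at percentile 99.3. Between IMQ+DMD and Ctrl that probe was at -1.09 (2.12-fold lower, technical SD 0.32), and it was short of 2-fold with the normexp correction. MIR181A2HG read 6.46, 6.21 and 5.46, a difference of -1.0 between IMQ+DMD and Ctrl (2.0-fold lower, technical SD 0.32) and -0.75 between IMQ+DMD and IMQ. The former was -0.90 with scaling to the 75th percentile and -0.48 with the normexp correction.

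MIR99AHG and MIR3976HG owe their place past 2-fold to single dim probes. The brightest MIR99AHG probe read 9.06, 8.88 and 8.69. Another of its probes read 5.54 on the Ctrl array and was not well above background on the others, which made it at least 2.74-fold lower with IMQ+DMD than in Ctrl, a bound of -0.52 on the log2 scale with the normexp correction. Its spot on the Ctrl array was at percentile 99.1 of unevenness. The other 2 probes of MIR99AHG read 4.65 and 4.15 on the Ctrl array, 4.64 and 4.63 on the IMQ+DMD array, and were not well above background on the IMQ array.

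For MIR3976HG, a probe was well above background on the IMQ array alone, at 5.42, at least 2.60-fold above Ctrl and at least 2.54-fold above IMQ+DMD. The bound of its log2 difference from Ctrl, 1.38, was 0.73, 0.87 and 0.51 without normalization, with scaling to spike-in probes and with the normexp correction, all short of 2-fold. Relative to IMQ+DMD the bound was short of 2-fold in these settings and with scaling to the 75th percentile. Its spot on the IMQ array was at percentile 97.8 of unevenness. The other probes read 5.45, 5.04 and 5.53, and 5.06 on the Ctrl array and 4.47 on the IMQ+DMD array with no signal well above background on the IMQ array, so that none of them shared the high IMQ value.

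The remaining microRNA hosts had no measured difference or bound that reached 2-fold, and where the value is a bound the true difference may be larger. Nearest to 2-fold was MIR100HG at 0.98 between IMQ+DMD and Ctrl (7.11, 7.30 and 8.09), where a second probe was at 0.01. MIR3663HG was well above background with IMQ and with IMQ+DMD, at 4.98 and 4.94, and not in Ctrl, so its differences from Ctrl were at least 0.94 and at least 0.90. MIRLET7BHG, the host of let-7b, was at 0.93 between IMQ+DMD and IMQ (6.68, 6.37 and 7.30). A dim probe of MIR205HG had signal with IMQ alone, at 4.94 and at least 0.89 above Ctrl, while its bright probe was at 0.11.

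**Figure D4:**
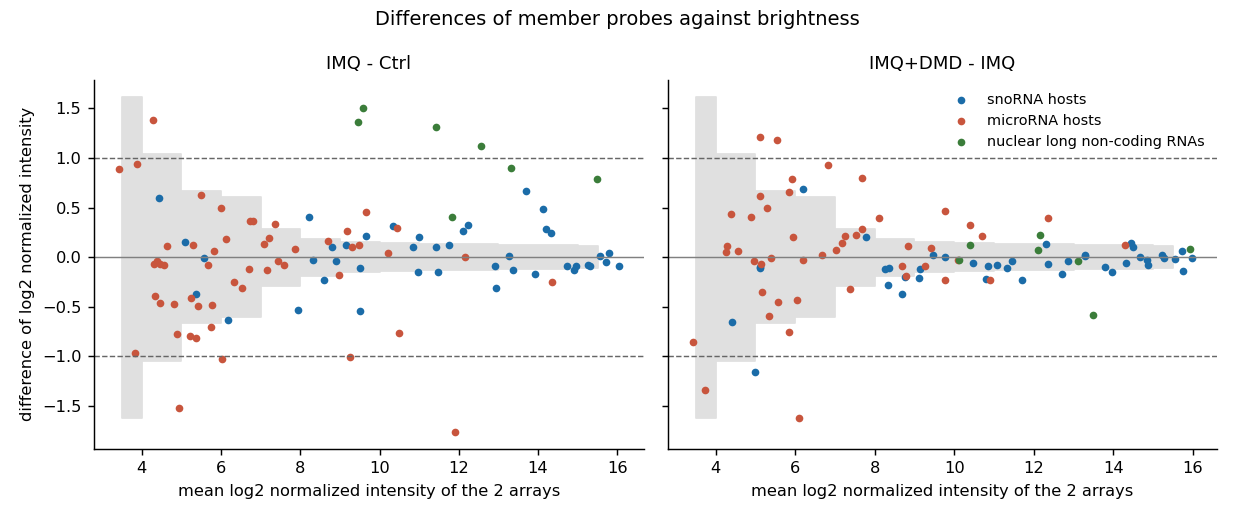
Difference of log2 normalized intensity (vertical axis) against the mean log2 normalized intensity of the arrays compared (horizontal axis, values as deposited) for every member probe, between IMQ and Ctrl (left) and between IMQ+DMD and IMQ (right). The grey band is 2 technical SDs on either side of 0 and dashed lines mark 2-fold; right of a log2 intensity of 8, the points past 2-fold between IMQ and Ctrl belong to NEAT1, MALAT1 and MIR503HG, and between IMQ+DMD and IMQ there are none.

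The snoRNA hosts were bright, and their normalized values differed little between the arrays. Signal was well above background on every array for 41 of 47 probes (87.2%), against 64.6% of all probes. Between IMQ and Ctrl, 0 of 42 compared probes reached 2-fold in either direction, and the differences ran from -0.64 to 0.67 with a median of -0.02. The median was 0.08 with scaling to the 75th percentile, -0.23 with scaling to spike-in probes and -0.38 without normalization, where 39 of 41 were below 0, beside 86.9% of all probes. Past 2-fold in the last setting were single probes of SNHG1 (-1.26), SNHG11 (-1.05) and SNHG22 (-1.04), and the first of these also with spike-in scaling (-1.12). As normalized by the authors, the differences were within 0.5 of 0 for 37 of the 42 (88.1%), against 72.7% of all probes compared. Among probes with a mean log2 intensity of at least 8, the shares were 34 of 36 (94.4%) and 76.3%. Several probes read the same host, so these are not 36 separate observations. In the comparison of IMQ+DMD with IMQ, 1 of 42 was at least 2-fold lower (2.38%, against 1.31% of all probes). Of the 42, 12 were above 0 and 30 below it, with a median of -0.07, beside 19833 above and 20955 below among all probes. With scaling to the 75th percentile or to spike-in probes, 5 were above and 38 below with a median of -0.21, beside 49.5% and 49.1% of all probes below 0, and without normalization the median was -0.15. Only 17371 of all 40828 probes had a mean log2 intensity of at least 8, against 36 of these 42, and no share at matched brightness was taken. With scaling to the 75th percentile, 17 of 19 protein-coding snoRNA hosts and 8 of 8 paraspeckle protein genes were also below 0, while 33 of 49 microRNA host probes were above it.

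GAS5, a host of many box C/D snoRNAs that accumulates when growth stops, was nearly the same on the 3 arrays. Its probes read 15.78, 15.82 and 15.67, and 13.27, 13.28 and 13.31. The differences between IMQ and Ctrl were 0.04 and 0.01, and those between IMQ+DMD and IMQ were -0.14 and 0.02. Without normalization the brighter GAS5 probe was at -0.27 between IMQ and Ctrl, with the median of all probes compared at -0.51.

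SNHG5 was read by 6 probes, which lay between -0.13 and 0.01 for IMQ against Ctrl and between -0.02 and 0.06 for IMQ+DMD against IMQ. The brightest read 16.08, 15.99 and 15.98. Some of the SNHG5 probes share most of their 60 bases, so the 6 are not separate readings of the transcript. The 3 probes of SNHG6 lay between -0.17 and -0.09 and between -0.10 and -0.03 in the same comparisons, and the 4 probes of SNHG7 lay between 0.12 and 0.26 and between -0.12 and 0.14.

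SNHG1, which hosts box C/D snoRNAs and gives a short-lived spliced RNA, was lower with IMQ in all 3 probes. They read 13.10, 12.79 and 12.62, then 8.72, 8.48 and 8.20, then 6.49, 5.86 and 6.54 on the Ctrl, IMQ and IMQ+DMD arrays, with differences of -0.32, -0.23 and -0.64 between IMQ and Ctrl. The brighter pair was lower again with DMD, by -0.17 and -0.28, while the dim probe was 0.68 higher (technical SD 0.32).

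The widest differences among bright snoRNA hosts were a higher reading of SNHG16 with IMQ (13.36, 14.03 and 13.88, a difference of 0.67) and of SNHG9 (13.88, 14.36 and 14.50, a difference of 0.48), and a lower one of SNHG10 (9.77, 9.23 and 9.02, a difference of -0.55). All are larger than 2 technical SDs and short of 2-fold. SNHG11 was split, with 0.28, -0.15 and -0.53 from its 3 probes.

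SNHG4 had the only snoRNA host probe past 2-fold in the values as normalized by the authors. It read 5.57 in Ctrl, 5.56 with IMQ and 4.40 with IMQ+DMD, a difference of -1.16 between IMQ+DMD and IMQ (2.23-fold lower, technical SD 0.44), and it was short of 2-fold at -0.83, -0.77, -0.82 and -0.41 with scaling to the 75th percentile, without normalization, with spike-in scaling and with the normexp correction. Its second probe read 5.03, 5.18 and 5.08 and did not follow it.

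**Figure D5:**
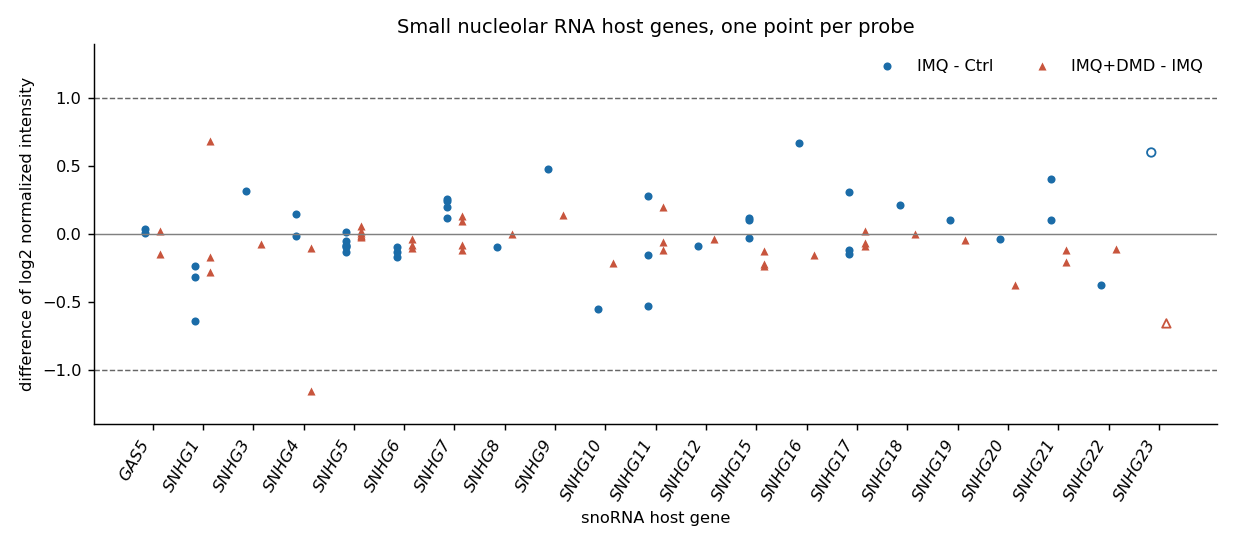
Difference of log2 normalized intensity (vertical axis) for every kept probe of the 21 snoRNA host genes (horizontal axis), between IMQ and Ctrl (circles) and between IMQ+DMD and IMQ (triangles). Open symbols are lower bounds and dashed lines mark 2-fold. SNHG4 holds the only point past 2-fold, at -1.16, and the 6 SNHG5 probes, some of which overlap, lie within 0.13 of 0.

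Across the members, different probes of a gene often disagreed in sign. Of 25 genes with at least 2 probes compared between IMQ and Ctrl, 11 had all of them on the same side of 0, and the median range between the probes of a gene was 0.46. For IMQ+DMD against IMQ, 9 of 25 did, with a median range of 0.25. NEAT1, MALAT1 and MIR503HG were among those on the same side for IMQ against Ctrl.

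The genes of proteins that work on these RNAs were read next, with each gene taken from its brightest probe. Of all genes read in this way, 4.18% were at least 2-fold higher and 3.59% at least 2-fold lower between IMQ and Ctrl, and 1.19% and 1.26% between IMQ+DMD and IMQ. The 7 genes of microRNA processing differed little, with 0 past 2-fold in any comparison. DROSHA, which cuts the hairpin out of the host, read 12.86, 12.76 and 12.83, and DICER1, which trims it, read 11.12, 11.21 and 11.12. Their differences ran from -0.33 for DGCR8, the partner of Drosha, to 0.20 for PRKRA between IMQ and Ctrl.

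Of the Argonaute and silencing-complex genes, 1 of 7 with signal was past 2-fold between IMQ and Ctrl, and 0 between IMQ+DMD and IMQ. AGO2, the Argonaute that can cut target RNA, read 11.86, 13.19 and 13.15, a difference of 1.33 between IMQ and Ctrl. AGO3 was just below 2-fold with 9.33, 10.32 and 10.44, a difference of 0.99, and its second probe was at 0.64. AGO2 was short of 2-fold at 0.97 without normalization, and AGO3 past it at 1.05 with scaling to the 75th percentile. AGO1 was at 0.40, with a second probe at 0.03, and AGO4 at 0.01. With DMD, AGO2 and AGO3 differed from IMQ by -0.04 and 0.11.

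Of 13 genes for the proteins of snoRNA particles, 0 were past 2-fold between IMQ and Ctrl, and 10 were below 0, beside 52.2% of all genes, with a median of -0.25. NOP56, a core protein of box C/D particles, read 13.39, 12.73 and 12.63, a difference of -0.67, and its second probe was at -0.34. Without normalization the former was past 2-fold at -1.02. In that setting 2 of the 13 were at least 2-fold lower and all 13 were below 0, beside 15.6% and 87.1% of all genes. FBL, the methyltransferase of these particles, was at -0.37 and DKC1, the pseudouridine synthase, at -0.39, while NOP10 was at 0.21. With DMD, the dim assembly factor NAF1 was past 2-fold relative to IMQ (5.66, 6.28 and 5.17, a difference of -1.11), and the median of the 13 was -0.04. The median between IMQ and Ctrl lay between -0.18 and -0.63 under the 5 other scalings, and NAF1 kept its call only under the quantile normalization made here.

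Read from their brightest probes, neither the 10 nonsense-mediated decay factors nor the 8 paraspeckle proteins had a gene past 2-fold in the 3 comparisons. Among the former, SMG5 was the highest with IMQ at 0.61, with a second probe at 0.95, and UPF3B the lowest at -0.28. Among the latter, other probes of some genes disagreed, while those of SFPQ, PSPC1 and NUDT21 lay on the same side of 0 between IMQ and Ctrl. RBM14 was the highest at 0.46, but its 4 probes ran from -0.71 to 0.46 between IMQ and Ctrl, and 1 of them was at 1.1 between IMQ+DMD and IMQ. NONO, a core paraspeckle protein, was the lowest at -0.40, and its second probe was at 0.12. DAZAP1 was at 0.14, while its second probe was at 1.68 between IMQ and Ctrl and at -1.57 between IMQ+DMD and IMQ.

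Of 19 protein-coding genes with signal that carry snoRNAs in their introns, 0 were past 2-fold in any comparison, and between IMQ and Ctrl they ran from -0.67 (NOP56) to 0.28 (EIF4A1) with a median of -0.10. The median was 0.10 with scaling to the 75th percentile, -0.21 with scaling to spike-in probes and -0.35 without normalization, where all 19 were below 0, beside 87.1% of all genes, and NOP56 was past 2-fold. RPL13A, a ribosomal protein gene, read 17.50, 17.44 and 17.45. Of 9 other non-coding hosts and long RNAs with signal, 0 were past 2-fold. DANCR was the lowest with IMQ at -0.60 and FTX the highest at 0.61, where its second probe was at -0.10, and MEG3 read 9.91, 9.37 and 9.97.

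Of the protein-coding genes that carry microRNAs, read from their brightest probes, 3 of 18 were at least 2-fold lower and 0 higher between IMQ and Ctrl, with a median of -0.20. The median was -0.10 with scaling to the 75th percentile, -0.41 with scaling to spike-in probes and -0.55 without normalization, and 4 were lower in the last 2 settings, where 10.6% and 15.6% of all genes were. MCM7, a subunit of the replicative helicase and host of the miR-106b-25 cluster, read 15.85, 14.31 and 14.15, a difference of -1.55, and its second probe was at -1.2. CTDSPL, a phosphatase gene that hosts a miR-26a gene, read 10.09, 8.85 and 8.74, a difference of -1.24. PANK1, a pantothenate kinase gene that hosts a miR-107 gene, read 7.72, 6.63 and 6.44, a difference of -1.10 that was -0.81 with the normexp correction. EVL, an actin regulator, was at -0.93, and at -1.12 and -1.26 with scaling to spike-in probes and without normalization. HUWE1, a ubiquitin ligase, was the highest at 0.73, and its second probe was past 2-fold at 1.30. Comparing IMQ+DMD with IMQ, 0 of 18 were past 2-fold, and 15 were below 0, beside 49.1% of all genes, with a median of -0.11. Relative to Ctrl, 4 of 18 were at least 2-fold lower on the IMQ+DMD array, beside 4.83% of all genes.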

How the data were processed

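RNA of the 3 conditions was labeled with Cy3 and hybridized to 1 one-color array each. The authors deposited the scanner output of Feature Extraction 10.5.1.1, with processed intensities and quality marks for every spot, and a table of raw and quantile-normalized intensities per probe. The raw intensities in the table equal those of the scanner. The authors' normalized intensity was used, and gene names are those of the array design, of which 51 of 57 host names matched current RefSeq by accession. The members and gene lists were chosen with earlier results of these data known. The genes described probe by probe are all host genes with a probe past 2-fold and 9 host genes of set interest (MIR155HG, MIR17HG, MIR22HG, MIR210HG, MIR4435-1HG, GAS5, SNHG1, NEAT1 and MALAT1), and from each gene list those past 2-fold or else the extremes. Other genes named were chosen after their values were seen. Log2 differences between single arrays were taken where the brighter array was well above background, without a test. The lowest value among probes well above background was 4.04 on the Ctrl, 4.57 on the IMQ and 4.08 on the IMQ+DMD array, and 72.0%, 66.6% and 71.9% of all probes were well above background. No member spot was saturated (0) or marked as an outlier (0). Unevenness is the percentile of a spot's pixel SD over its mean among spots within 1.5-fold of its brightness. Alternatives were run with limma 3.58.1 in R 4.3.3, Python 3.11.15, numpy 2.4.6 and pandas 2.3.3, and plots with matplotlib 3.10.9. The counting of calls was tested on simulated copies of the Ctrl array, where bright probes were raised well past 2-fold and the added noise was small. That run checks the code and cannot show how reliable calls of dim probes or bounds are. Enrichment results mentioned by the authors were not used. A gene of one list is not reported here.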

Additional observations from a re-analysis of the deposited data

How the results depend on the processing

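No paired analysis was possible because each condition had 1 array, and none of the results rests on a test. Counts of host probes past 2-fold depended on the scaling of the arrays. Without normalization, 1 was higher and 19 lower between IMQ and Ctrl (1.71% and 15.6% of all probes) with a median of -0.43, 7 higher and 1 lower between IMQ+DMD and IMQ (3.97% and 0.549%), and 1 higher between IMQ+DMD and Ctrl (1.55%) with a median of -0.42. In that setting the median of all probes with signal on every array was -0.49 between IMQ and Ctrl, 0.04 between IMQ+DMD and IMQ and -0.33 between IMQ+DMD and Ctrl. With scaling to the 10 spike-in probes, the counts were 3 and 14 (2.09% and 10.6%) with a median of -0.29, 4 and 1 (3.14% and 0.638%), and 1 higher (1.81%) with a median of -0.34, and the medians of all probes were -0.35, -0.02 and -0.25. Scaling to the 75th percentile gave 8 lower between IMQ and Ctrl (4.57%), and 4 higher and 1 lower between IMQ+DMD and IMQ (3.09% and 0.648%). The normexp correction with an offset of 50, which draws dim values together, gave 1 lower between IMQ and Ctrl (1.69%), 0 higher and 0 lower between IMQ+DMD and IMQ (0.0524% and 0.0906%), and 1 lower between IMQ+DMD and Ctrl (2.25%). Requiring signal on both arrays left 1 higher between IMQ+DMD and IMQ (0.753%). Without filter or floor, 8 were lower between IMQ and Ctrl (6.62%) and 5 between IMQ+DMD and IMQ (3.83%). At 1.5-fold the counts were 12 and 11 (11.2% and 10.6%), 8 and 7 (6.25% and 5.98%), and 10 and 13 (9.78% and 11.9%). The cause of the other shifts was not tested. Under the quantile normalization made here, 3 microRNA host probes were at least 2-fold lower between IMQ and Ctrl, where the authors' values gave 4. Read from their brightest probes, NEAT1, MALAT1 and MIR3976HG were at 0.90, 0.79 and -0.41 between IMQ and Ctrl. Their calls of a higher level with IMQ thus rest on their other probes. For the 17 host genes named one by one, 268 of 406 values under the alternatives moved by less than the technical SD, 138 moved by more, and no called value turned its sign (0). Requiring signal on both arrays, or leaving out filter and floor, kept the authors' normalized values, so probes with signal on every array could not move there. The reference value of each gene came from its brightest probe, so this count does not cover the sign of calls that rest on other probes.

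Signal over background limited most microRNA hosts. Over a local background of 34, 33 and 32, the processed intensities of the Ctrl, IMQ and IMQ+DMD arrays had medians of 94.5, 61.8 and 76.4. At log2 intensities from 4 to 5 repeated spots had a median SD of 0.37 (8 readings), and from 12 to 13 of 0.05 (143 readings).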

Other observations

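Genes known as targets of miR-155, whose host is MIR155HG, were read beside the host and do not measure the microRNA. Of 10 with signal, 2 were at least 2-fold higher and 1 at least 2-fold lower between IMQ and Ctrl, with a median of -0.05, beside 4.18% and 3.59% of all genes read in this way. Without normalization and with scaling to spike-in probes, 1 was higher and 2 were lower, with medians of -0.44 and -0.31, where 1.75% and 2.12% of all genes were higher and 15.6% and 10.6% lower, with medians of -0.51 and -0.37. Comparing IMQ+DMD with IMQ, 0 were past 2-fold. CEBPB, a transcription factor of inflammatory macrophages, read 12.59, 15.62 and 15.64 on the Ctrl, IMQ and IMQ+DMD arrays, a difference of 3.04 between IMQ and Ctrl. JARID2, a cofactor of Polycomb repression, read 10.82, 11.94 and 12.12, a difference of 1.12 that fell short of 2-fold at 0.74 and 0.88 in those settings. INPP5D, the SHIP1 phosphatase gene, read 14.96, 13.44 and 13.23, a difference of -1.52, and ETS1 was short of 2-fold at -0.89. SPI1 read 14.14, 14.19 and 14.24.

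Among 23465 probes of other named genes with signal on all 3 arrays, the patterns nearest to that of MIR155HG over the 3 arrays, after removing the mean of each probe, were those of MAPK8, RPS6KB1, LOC730098, FCHSD2 and CCNL2. Their distances were 0.005 to 0.010 on the log2 scale. MAPK8, a stress-activated kinase gene, read 6.43, 6.89 and 6.67, and CCNL2, a cyclin gene linked to splicing, read 9.77, 10.23 and 10.01. A search over 3 arrays finds many near patterns, and the likeness is a description.

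Among the marker genes of macrophages, CD163 read 13.43, 12.21 and 12.30 and CYBB, a subunit of the phagocyte oxidase, read 12.81, 11.66 and 11.72, both at least 2-fold lower with IMQ, while ITGAX was at 0.44. Of the 8 read, 2 were at least 2-fold lower and 0 higher between IMQ and Ctrl, with a median of -0.30, beside 3.59% lower and 4.18% higher among all genes. When no normalization was applied the median was -0.56 and 3 were lower, beside -0.51 and 15.6% for all genes, and scaling by the 75th percentile gave -0.11.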
